A study of Mus musculus with 18 samples.

Results

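The 10 genes described here make up the core of MHC class I antigen presentation in the mouse, namely the heavy chains H2-K1 and H2-D1, the light chain B2m, the peptide transporter genes Tap1 and Tap2, the loading factor Tapbp, the immunoproteasome subunits Psmb8, Psmb9 and Psmb10, and the class I transactivator Nlrc5. They were chosen by name for their place in this pathway. All 10 were found among the 55453 gene symbols of the count table, and all 10 were among the 16170 genes with enough counts to be tested. The cells were Tcf21-lineage cardiac fibroblasts sorted for GFP from mouse pups, from the ventricles near the apex, and their RNA was sequenced in bulk. Each pup carried 1 copy of Tcf21-MerCreMer, a tamoxifen-inducible Cre expressed in resident cardiac fibroblasts, and 1 copy of the reporter Rosa-mTmG. Tamoxifen was given on postnatal day 1 in all groups, so that GFP marked the Tcf21 lineage and tdTomato the remaining cells.

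There were 18 libraries in 6 groups of 3. P2 baseline and P10 baseline came from un-manipulated pups on postnatal days 2 and 10. P2 sham +3 days and P10 sham +3 days came from pups whose heart was exposed but not cut on day 2 or day 10, collected on day 5 or day 13. P2 resected +3 days and P10 resected +3 days came from pups that lost the tip of the heart on the same days and were collected at the same ages. Hearts collected on days 10 and 13 were digested for longer than those collected on days 2 and 5. Age and digestion time thus cannot be told apart. The heart regenerates after injury at P2 (the regenerative window) and scars after injury at P10 (the non-regenerative window). Neither the labels nor the study's text state how many pups went into a library, so p-values measure the spread between these libraries only.

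Class I molecules show short peptides from inside the cell to CD8 T cells at the surface of nearly every nucleated cell. Proteasomes cut proteins into peptides, the TAP1 and TAP2 proteins carry the peptides into the endoplasmic reticulum, tapasin (the product of Tapbp) helps to load them onto a heavy chain paired with beta-2-microglobulin, and the loaded complex travels to the surface. Interferons raise most of these genes together, and NLRC5 is a nuclear factor that acts on their promoters. Cardiac fibroblasts are not professional antigen-presenting cells.

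The libraries held 10462737 to 22980554 counts each. Levels are given as CPM, counts per 1000000 of the library size after TMM scaling. No pair of replicates held the same counts, and the chi-square per gene was 32.98 to 304 over the 18 pairs of replicates. Mitochondrial genes took 0.198% to 1.07% of the counts. The fibroblast markers Tcf21, Pdgfra and Col1a1 had counts in every library, with Tcf21 between 203 and 447 CPM. Fewer cells of a type and less RNA per cell cannot be told apart in bulk libraries. The library P10 resected replicate 3 stood apart for the genes described here, and values without it are given beside results that turn on it.

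H2-K1 and H2-D1 encode the classical heavy chains that bind peptide. Both lie in the MHC on chromosome 17, H2-K1 on the reverse strand at chr17:33996017-34000347 and H2-D1 on the forward strand at chr17:35262730-35267499 (GRCm38). The stretches of 30 bases around an NF-kB core in their promoters are shown because these genes were called between ages in every matched pair of groups. The capitals mark the core GGGATTCCC.

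H2-K1 (RefSeq, GRCm38.p6, chr17:34000438-34000467, reverse strand): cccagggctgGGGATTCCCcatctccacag
H2-D1 (RefSeq, GRCm38.p6, chr17:35262914-35262943, forward strand): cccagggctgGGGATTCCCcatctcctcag

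The core began 110 bases before the RefSeq start of H2-K1 and 170 bases before that of H2-D1, and 29 of the 30 bases were identical between them. The H2-D1 stretch lies before the RefSeq start but inside the GENCODE gene, in an annotated exon, while that of H2-K1 lies outside the gene. Searched on both strands in the 200 bases before the start, these letters were found in 60 of 27025 promoters (0.222%), and no other member with a promoter entry held them. The nonclassical heavy chains H2-Q6 and H2-Q7 (132 bases before the start of H2-Q7) and the regulator Irf1 held them too. None of these genes was called with age by edgeR. Entries were found for 8 of the 10 members, all but Tap2 and Nlrc5, and only the first start listed for a gene was searched. The letters are a description of the sequence, and no binding was measured.

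H2-K1 was lower in the P2 than in the P10 libraries of every matched pair of groups. In P2 baseline it stood at 26.7, 19.6 and 23.03 CPM in replicates 1 to 3, and in P10 baseline at 69.3, 58.2 and 78.8 CPM. After sham surgery the values were 35.8, 45.4 and 34.1 CPM at P2 and 130.2, 173 and 136 CPM at P10. After resection they were 70.8, 45.8 and 45.7 CPM at P2 and 133, 122.8 and 342 CPM at P10. The P2 and P10 libraries did not overlap within baseline, sham or resected, but across the windows the highest P2 library (70.8 CPM) lay above the lowest P10 libraries.

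The log2 fold change of H2-K1 from P2 to P10 was 1.57 ± 0.34 (SE, n = 3 per group; adjusted p = 0.0126, edgeR's quasi-likelihood test) at baseline. It was 1.93 ± 0.34 (adjusted p = 0.00339) after sham surgery and 1.88 ± 0.34 (adjusted p = 0.0105) after resection. Over all 9 P10 against all 9 P2 libraries it was 1.79 ± 0.19 (95% interval 1.38 to 2.20, adjusted p = 8.89e-06), a 3.47-fold difference. H2-K1 was thus called higher at P10 in each of the 4 comparisons, but between the resected groups the call was lost without P10 resected replicate 3 (1.26, adjusted p = 0.0581) and without P2 resected replicate 2 or 3.

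H2-D1 followed the same order at a higher level. The P2 baseline libraries held 74.7, 64.2 and 113 CPM, the P2 sham libraries 134, 119 and 144 CPM and the P2 resected libraries 201, 142 and 148 CPM. The P10 baseline libraries held 146, 212 and 214 CPM, the P10 sham libraries 356, 437 and 431 CPM and the P10 resected libraries 347, 371 and 858 CPM. At matched conditions no P2 library reached the lowest P10 library. The log2 fold change was 1.19 ± 0.31 (adjusted p = 0.0391) at baseline, 1.63 ± 0.32 (adjusted p = 0.00718) after sham surgery, 1.68 ± 0.32 (adjusted p = 0.0141) after resection and 1.498 ± 0.18 (adjusted p = 2.55e-05) over the windows. Its call after resection was lost without P10 resected replicate 3 (1.15, adjusted p = 0.0806) and without P2 resected replicate 2 or 3.

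In the order of group means, both heavy chains ran from P2 baseline through P2 sham, P2 resected, P10 baseline and P10 sham to P10 resected. H2-K1 went from 23.1 ± 3.56 to 199 ± 124 CPM and H2-D1 from 83.9 ± 25.6 to 526 ± 289 CPM (mean ± SD, n = 3). No neighbouring pair in this order was called by edgeR (adjusted p 0.419 to 1). The last step of the order turned on P10 resected replicate 3. The medians of P10 resected (133 CPM for H2-K1 and 371 CPM for H2-D1) lay below those of P10 sham (136 and 431 CPM). Without that library the log2 difference, P10 resected minus P10 sham, was -0.20 for H2-K1 and -0.18 for H2-D1. The libraries of P2 sham lay above those of P2 baseline, and those of P10 sham above those of P10 baseline, without overlap for either gene.

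The calls after sham surgery and over the windows held in every alternative and with each library left out. At baseline H2-K1 was no longer called without P2 baseline replicate 2 (1.46, adjusted p = 0.0677) or without P10 baseline replicate 3 (1.46, adjusted p = 0.0505). In a fit of only the groups compared, H2-D1 at baseline (1.21, adjusted p = 0.0708) and H2-K1 after resection (1.89, adjusted p = 0.0519) were no longer called. H2-D1 at baseline was also lost without P2 baseline replicate 1 or 2 or P10 baseline replicate 2 or 3 (1.02 to 1.11, adjusted p 0.132 to 0.165).

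**Figure D1:**
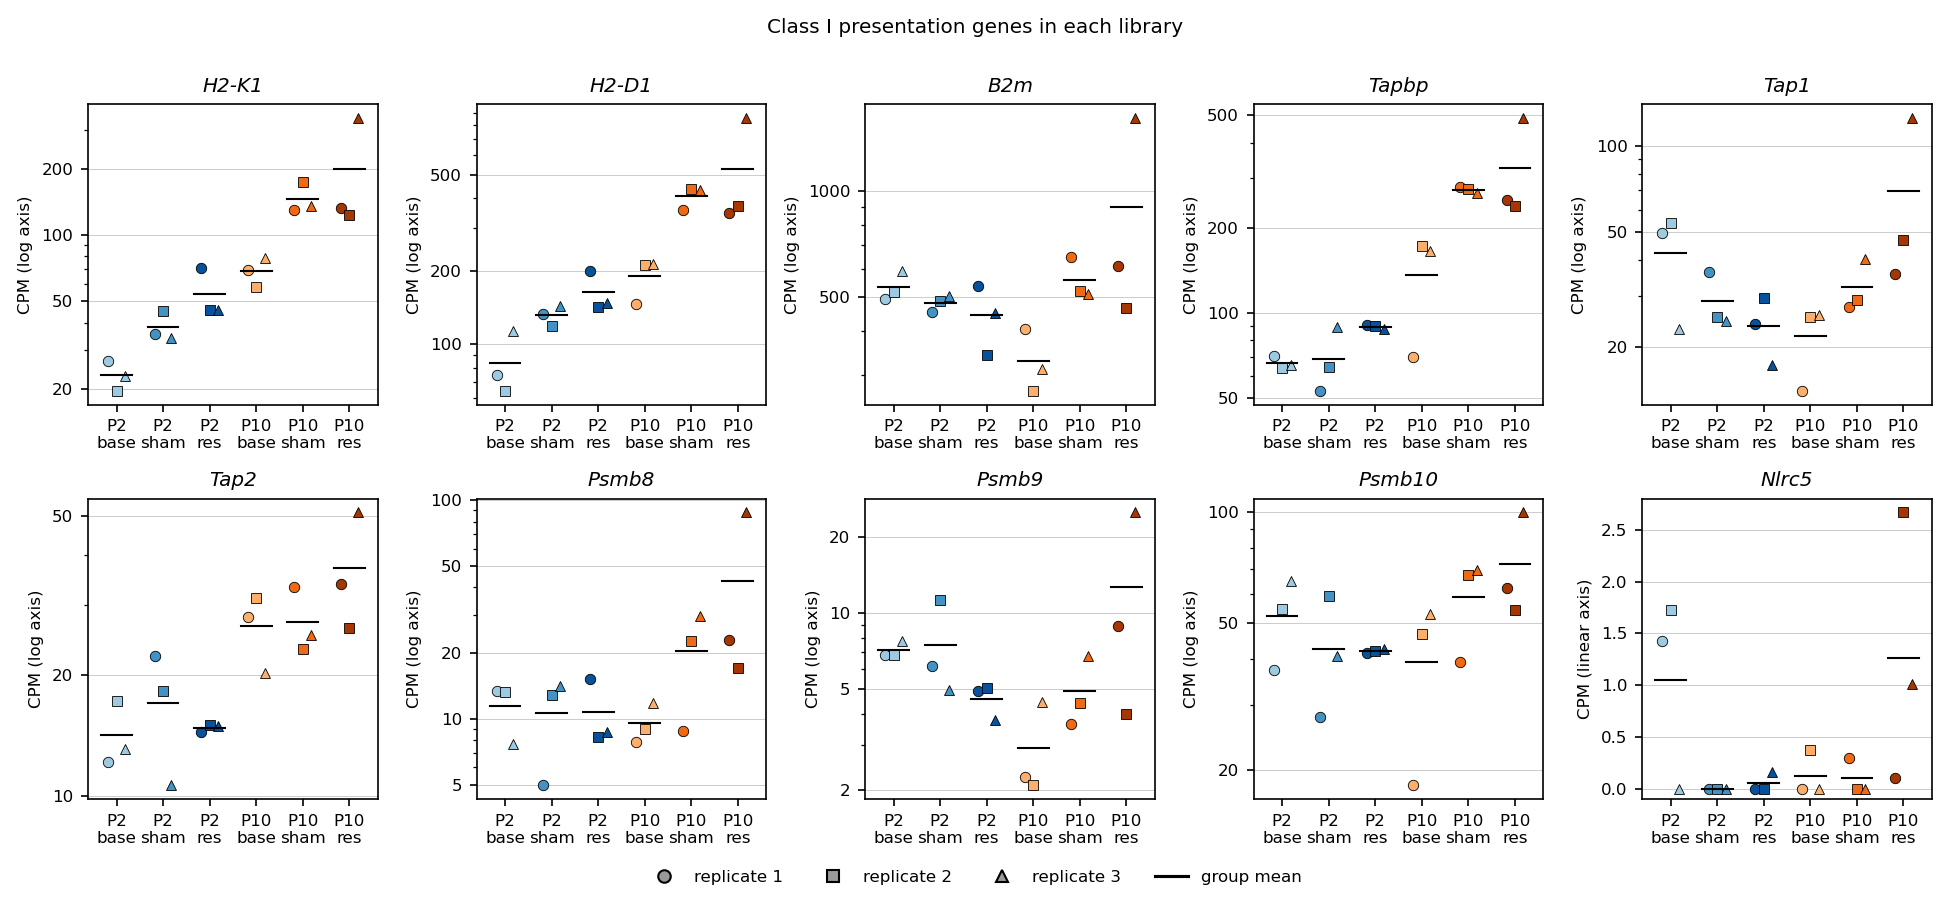
Level of each of the 10 genes (CPM, log axis) in the 18 libraries by group, with points for libraries and a bar for the group mean. Nlrc5 is on a linear axis. At matched conditions H2-K1 and H2-D1 are higher in every P10 library than in every P2 library, and P10 resected replicate 3 is the highest library for 9 of the 10 genes.

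B2m, on chromosome 2 (chr2:122147686-122153083, forward strand), encodes the light chain that every class I heavy chain needs for folding and transport. Its upstream sequence is shown against that of H2-K1, because the heavy chain and the light chain differed in their course with age. The capitals mark the interferon regulatory factor (IRF) core AANNGAAA, read on the other strand in H2-K1, the NF-kB core in H2-K1, and ATTGG, the CCAAT box read on the other strand.

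H2-K1 (RefSeq, GRCm38.p6, chr17:34000348-34000547, reverse strand): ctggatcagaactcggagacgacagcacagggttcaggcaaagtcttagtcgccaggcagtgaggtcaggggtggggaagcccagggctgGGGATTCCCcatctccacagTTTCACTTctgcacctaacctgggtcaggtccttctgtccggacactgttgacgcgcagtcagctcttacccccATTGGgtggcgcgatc
B2m (RefSeq, GRCm38.p6, chr2:122147487-122147685, forward strand): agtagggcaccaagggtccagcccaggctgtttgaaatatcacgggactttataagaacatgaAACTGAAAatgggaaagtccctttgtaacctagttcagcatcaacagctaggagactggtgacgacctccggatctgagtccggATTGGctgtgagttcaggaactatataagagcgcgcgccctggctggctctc

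The IRF core began 137 bases before the start of B2m, 90 bases before that of H2-K1 and 150 bases before that of H2-D1. It was found in 17.2% of all promoters and, on either strand, in none of the other 5 members with an entry. The CCAAT box was found in 30% of promoters, among them those of H2-K1, H2-D1, B2m, Tapbp and Psmb9. The interferon gamma activation sequence TTCNNNGAA (5.62% of promoters) was found in Psmb8 alone of the members, 97 bases before its RefSeq start. The 200 bases searched lay wholly in annotated exons for H2-D1, Tap1, Tapbp, Psmb8 and Psmb9, and 52 of them did for Psmb10. For H2-D1, Tapbp, Psmb8 and Psmb9 they lay inside the GENCODE gene. A match or its absence describes these bases only.

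B2m was already abundant at P2 and did not follow the heavy chains. The P2 baseline libraries stood at 491, 516 and 590.1 CPM and the P10 baseline libraries at 404, 269.9 and 312 CPM, without overlap and with the P10 libraries lower. After sham surgery the order was the opposite, with 452, 485 and 502 CPM at P2 and 648, 519 and 508 CPM at P10. After resection the values were 537, 342 and 450.2 CPM at P2 and 612, 464 and 1615 CPM at P10, and the groups overlapped. With all libraries and the filter on low counts, edgeR called no difference in B2m. Its log2 fold change from P2 to P10 was -0.70 ± 0.34 (adjusted p = 0.277) at baseline, 0.22 ± 0.34 (adjusted p = 0.831) after sham surgery and 1.02 ± 0.34 (adjusted p = 0.242) after resection, where it was called without the filter on low counts (adjusted p = 0.0221). That last difference was 0.30 without P10 resected replicate 3. Over the windows it was 0.18 ± 0.19 with a 95% interval from -0.23 to 0.59, which lies below the interval of either heavy chain.

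Per kilobase of exon, B2m stood at 619 ± 59.8 CPM in P2 baseline, against 32.5 ± 9.91 for H2-D1 and 7.87 ± 1.21 for H2-K1 (CPM per kb, mean ± SD, n = 3). In P10 sham the same levels were 649 ± 90.0 for B2m, 158 ± 17.5 for H2-D1 and 49.9 ± 7.98 for H2-K1. The light chain was the most abundant member per length in every group.

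The count of one member over that of another within the same library does not depend on the scaling between libraries. The ratio of H2-K1 to B2m reads averaged 0.0438 in P2 baseline, 0.0802 in P2 sham, 0.123 in P2 resected, 0.213 in P10 baseline, 0.268 in P10 sham and 0.231 in P10 resected. The highest of the 9 P2 libraries (0.134) lay below the lowest of the 9 P10 libraries (0.172). P10 resected replicate 3, the library with the highest levels, had a ratio of 0.212, close to those of its replicates (0.216 and 0.265). The ratio was 3.12-fold higher at P10 (two-sided exact permutation test with ages exchanged within baseline, sham and resected, p = 0.00025, the smallest that 8000 arrangements allow; adjusted p = 0.001 over 8 ratios).

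The ratio of H2-D1 to B2m was 2.57-fold higher at P10 (exact permutation p = 0.00025, adjusted p = 0.001). Leaving out P10 resected replicate 3 gave folds of 3.16 and 2.63, with adjusted p = 0.001 for both (exact permutation, 4000 arrangements). H2-K1 and H2-D1 kept nearer to each other, at a ratio of 0.289 in P2 baseline and 0.370 in P10 resected (1.22-fold between the ages, exact permutation p = 0.0463, adjusted p = 0.0617). These 8 ratios were chosen after the levels had been seen.

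**Figure D2:**
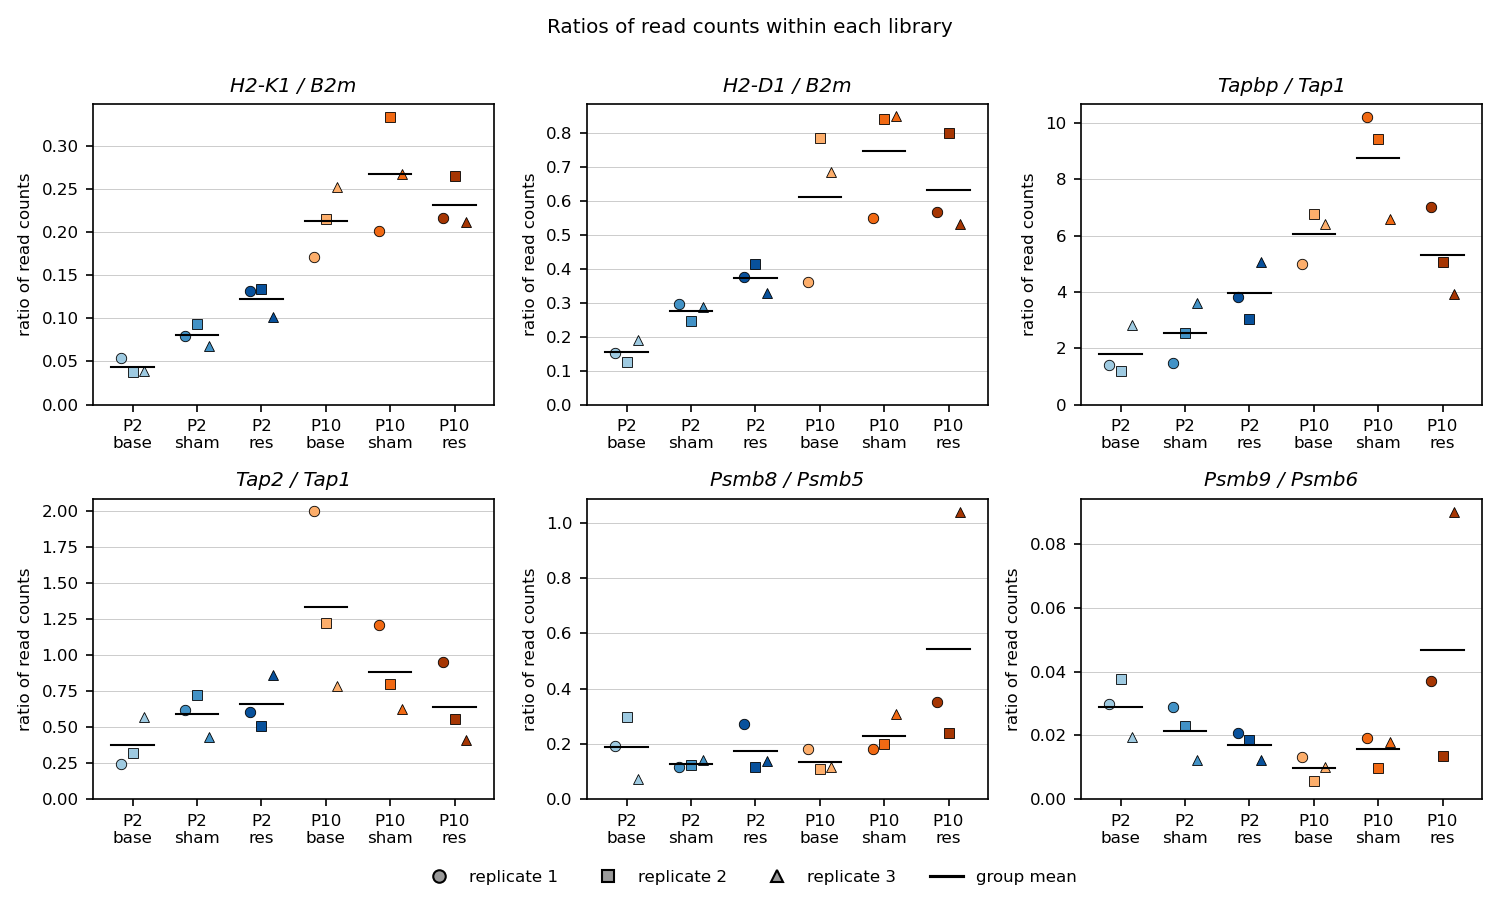
Ratio of the read counts of pairs of class I genes in each library (linear axis) by group, with a bar for the group mean. H2-K1 over B2m is at most 0.134 in the P2 libraries and at least 0.172 in the P10 libraries, while Psmb9 over Psmb6 shows no such separation.

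Tapbp, Tap1 and Tap2 act at the next step, inside and across the membrane of the endoplasmic reticulum. Tapbp lies near H2-K1 on chromosome 17 (chr17:33915899-33929292, forward strand), and 29% of its exon bases are shared with Gm19412 or Zbtb22. Reads that overlap several genes are left out by default and strand was not used, so the level of Tapbp is uncertain. Tapbp stood at 70.3, 64.1 and 65.3 CPM in P2 baseline and at 70.1, 172 and 166 CPM in P10 baseline. In the sham groups it stood at 53.1, 64.5 and 88.9 CPM at P2 and at 279.9, 274 and 266 CPM at P10. In the resected groups it stood at 91.0, 89.9 and 87.6 CPM at P2 and at 250.02, 238 and 490.5 CPM at P10. Ages overlapped at baseline, through P10 baseline replicate 1, and did not overlap after either surgery.

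Tapbp rose with age after sham surgery (log2 fold change 1.99 ± 0.32, adjusted p = 0.00187), after resection (1.87 ± 0.32, adjusted p = 0.00834) and over the windows (1.63 ± 0.19, 95% interval 1.24 to 2.02, adjusted p = 1.37e-05). The call after resection was lost without P10 resected replicate 3 (1.46, adjusted p = 0.0581) and without P2 resected replicate 2 or 3. At baseline its difference was 1.03 ± 0.32 (adjusted p = 0.0745), and it was called without P10 baseline replicate 1 (1.35, adjusted p = 0.00814). With all libraries it was called at baseline without the filter (adjusted p = 0.0113), with DESeq2 (adjusted p = 0.0204) and with limma voom (adjusted p = 0.00298).

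Tap1 and Tap2 encode the subunits of the transporter that feeds peptides to the loading complex. They lie close together on chromosome 17 (Tap1 chr17:34187553-34197225, Tap2 chr17:34203527-34216321, both on the forward strand) with Psmb8 between them. Tap2 stood at 12.2, 17.3 and 13.1 CPM in P2 baseline, and the 9 P2 libraries ranged from 10.6 to 22.4 CPM. The 9 P10 libraries ranged from 20.3 to 51.0 CPM. Tap2 rose over the windows by 0.96 ± 0.19 on the log2 scale (95% interval 0.57 to 1.36, adjusted p = 0.00206) and, with all groups in the fit, was called by edgeR in none of the single-condition comparisons (0.67 to 1.32, adjusted p 0.0739 to 0.320). It was called at baseline with DESeq2 (adjusted p = 0.0455) and limma voom (adjusted p = 0.0160), and after resection with both (adjusted p = 0.00253 and 0.00655) and in a fit of only the groups compared (adjusted p = 0.0468). Of its exon bases, 18.5% are shared with antisense transcripts.

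Tap1 showed no such course. It stood at 49.9, 53.9 and 22.97 CPM in P2 baseline and at 14.0, 25.4 and 25.8 CPM in P10 baseline. It stood at 35.6, 47.2 and 125 CPM in P10 resected, against 23.9, 29.5 and 17.3 CPM in P2 resected. The log2 fold change from P2 to P10 was -0.96 ± 0.44 at baseline (adjusted p = 0.248), 0.16 ± 0.43 after sham surgery, 1.56 ± 0.44 after resection (adjusted p = 0.134) and 0.25 ± 0.25 over the windows (95% interval -0.27 to 0.78). After resection it was called without the filter (adjusted p = 0.00587) and with DESeq2 (adjusted p = 0.0190), and in edgeR it was 0.82 (adjusted p = 1) without P10 resected replicate 3. Within libraries, the ratio of Tapbp to Tap1 was 2.58-fold higher at P10 (exact permutation p = 0.00075, adjusted p = 0.002) and that of Tap2 to Tap1 was 1.69-fold higher (exact permutation p = 0.0315, adjusted p = 0.0504). The latter was 1.80-fold without P10 resected replicate 3, with adjusted p = 0.024 (exact permutation).

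Psmb8, Psmb9 and Psmb10 replace the catalytic subunits Psmb5, Psmb6 and Psmb7 when cells build immunoproteasomes, which cut peptides better suited to class I. Psmb9 (chr17:34181987-34187764, reverse strand) and Tap1 are transcribed in opposite directions, from RefSeq starts 225 bases apart. In GENCODE they overlap by 212 bases, 5.79% and 3.87% of their exon bases. Psmb8 lies at chr17:34197721-34201454 on the forward strand. Psmb10 lies outside the MHC, at chr8:105935735-105938444 on the reverse strand.

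With all libraries and the filter on low counts, edgeR called none of these 3 genes between ages. Psmb8 stood at 13.5, 13.3 and 7.68 CPM in P2 baseline and at 7.83, 8.99 and 11.8 CPM in P10 baseline. It stood at 8.84, 22.7 and 29.6 CPM in P10 sham and at 23.01, 17.2 and 88.4 CPM in P10 resected. Its window difference of 0.88 ± 0.34 missed the threshold (adjusted p = 0.0912), and without P10 sham replicate 1 it was 1.00 with adjusted p = 0.0491. Without the filter and with DESeq2, Psmb8 was called over the windows (adjusted p = 0.0146 and 0.0452) and after resection (adjusted p = 0.00486 and 0.0204). In edgeR these differences were 0.53 and 0.92, neither called, without P10 resected replicate 3. Psmb9 was the lowest of the 3, at 6.86, 6.84 and 7.74 CPM in P2 baseline and 2.24, 2.09 and 4.44 CPM in P10 baseline, without overlap (-1.30 ± 0.60, adjusted p = 0.251). In P10 resected Psmb9 stood at 8.90, 4.004 and 25.1 CPM. Psmb10 ranged from 27.8 to 65.1 CPM over the P2 libraries and from 18.2 to 100.0 CPM over the P10 libraries (0.28 ± 0.22, adjusted p = 0.454).

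In P2 baseline the mean levels per kilobase of Psmb5 and Psmb6 were above those of Psmb8 and Psmb9, and that of Psmb7 was below that of Psmb10. By read counts Psmb7 was above Psmb10 there, with a mean ratio of Psmb10 to Psmb7 of 0.790. Per kilobase, Psmb5 stood at 81.9 ± 33.7 CPM in P2 baseline against 3.40 ± 0.98 for Psmb8, and Psmb6 at 144 ± 60.9 CPM against 1.95 ± 0.14 for Psmb9. Psmb7 and Psmb10 stood at 19.6 ± 4.82 and 30.7 ± 8.19 CPM per kb. Psmb5 shares 36.8% of its stretches of 75 bases, the read length, with a copy (Gm3375) and other transcripts, so its level is uncertain. Psmb8 and Psmb7 share 14.7% and 11.8% of their exon bases with genes on the other strand. Their levels, and the ratios below that use them, are uncertain too. Window differences were 0.11 for Psmb5, 0.039 for Psmb6 and -0.30 for Psmb7, none of them called. The within-library ratio of Psmb10 to Psmb7 was 1.42-fold higher at P10 (exact permutation p = 0.024, adjusted p = 0.048), and without P10 resected replicate 3 it was 1.33-fold with adjusted p = 0.0592 (exact permutation). The ratio of Psmb8 to Psmb5 was 1.58-fold (exact permutation, adjusted p = 0.104) and that of Psmb9 to Psmb6 was 0.806-fold (exact permutation, adjusted p = 0.493).

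Nlrc5 (chr8:94434356-94527272, forward strand) was at the edge of detection, with no count in 10 of 18 libraries. Its reads numbered 31, 37 and 0 in P2 baseline, 0, 0 and 0 in P2 sham, 0, 0 and 3 in P2 resected, 0, 7 and 0 in P10 baseline, 6, 0 and 0 in P10 sham and 2, 42 and 13 in P10 resected. The replicates of P2 baseline and of P10 resected thus ranged from 0 to 37 and from 2 to 42 reads. Summed over the group, Nlrc5 had 57 reads in P10 resected and 3 in P2 resected, a ratio per read of 22.9 with a 95% counting interval of 7.44 to 114. It was at least 22.3-fold lower in P2 sham than in P2 baseline, taking 3 counts over the group as the floor. Such intervals and floors cover counting error only, and across replicates no difference in Nlrc5 was called (adjusted p 0.336 to 1). Nlrc5 was the 1 member for which P10 resected replicate 3 was not the highest library.

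Taken by comparison, members called with age were all higher at P10. At baseline 2 of the 10 were called (H2-K1 and H2-D1), where 4.38% of all genes tested were called and 2.71% were called higher. After sham surgery 3 were called (H2-K1, H2-D1 and Tapbp; 3.18% of all genes), after resection the same 3 (0.86% of all genes), and over the windows 4, with Tap2 (13.5% of all genes). The median log2 fold change of the 10 members was -0.34 within baseline, 0.80 within sham and 1.62 within the resected groups, against -0.027, -0.069 and -0.035 over all genes tested. The resected median was 0.98 without P10 resected replicate 3. No member was called lower at P10 in any of the 4 comparisons, where 6, 3, 8 and 5 members had an unadjusted p under 0.05 in either direction (18.7%, 16.3%, 8.77% and 28.3% of all genes), and DESeq2 and limma voom also called none lower.

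The groups of some members did not overlap, and this held for members that were called and for others that were not. At baseline H2-K1, H2-D1 and Tap2 were higher in every P10 library than in every P2 library (10.3% of all genes), and B2m and Psmb9 were lower in every P10 library (12.1% of all genes). After sham surgery 5 members were higher without overlap (H2-K1, H2-D1, Tapbp, Tap2 and B2m; 9.07% of all genes) and none lower. After resection 7 were (all but B2m, Psmb9 and Nlrc5; 10.6% of all genes).

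**Figure D3:**
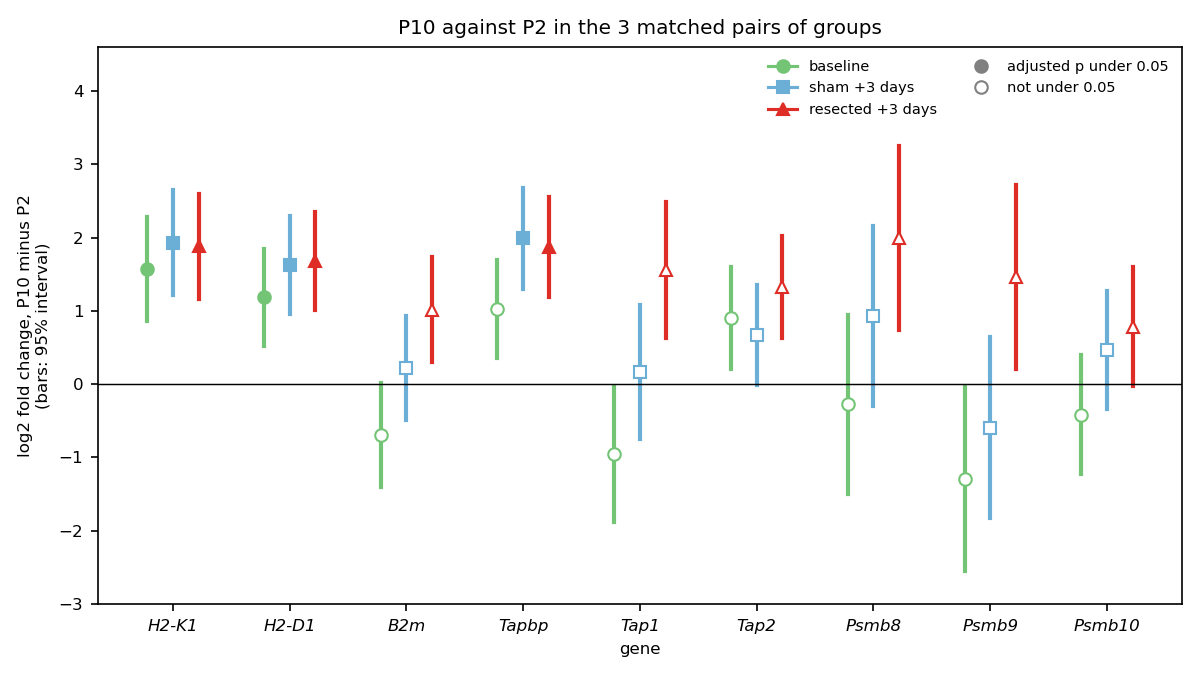
Log2 fold change from P2 to P10 (vertical axis) of 9 class I genes, Nlrc5 left out, within the baseline, sham and resected groups, with 95% intervals as bars and filled symbols for called differences. H2-K1 and H2-D1 lie above 0 in each comparison, with 1.57 and 1.19 at baseline, while B2m moves from -0.70 at baseline to 1.02 after resection.

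P10 resected replicate 3 had the highest level of the 18 libraries for 9 of the 10 members, against 5.97% of all genes tested. Its level over the mean of replicates 1 and 2 was 2.68-fold for H2-K1, 2.39-fold for H2-D1, 3.00-fold for B2m, 3.03-fold for Tap1, 2.01-fold for Tapbp, 4.40-fold for Psmb8 and 3.89-fold for Psmb9. Tap2 and Psmb10 were 1.70-fold and 1.71-fold higher there, and Nlrc5 was at 0.730 of that mean. The median over members was 2.53-fold, against 0.951-fold over all genes tested.

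Other interferon-stimulated genes stood apart in the same library. Summed over a list of 42 such genes that holds no member, replicates 1 to 3 of P10 resected had 2191, 1481 and 8937 CPM. Macrophage markers were lowest in replicate 3, at 505, 1195 and 84.4 CPM summed over 15 genes, and so were MHC class II genes, at 50.4, 26.4 and 17.6 CPM over 9 genes. The fibroblast markers summed to 83902, 103015 and 96952 CPM.

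Without this library no member was called between the resected groups, and 51 genes were called in all. The calls of H2-K1, H2-D1 and Tapbp were also lost without P2 resected replicate 2 or 3, where the log2 fold changes were 1.59 to 1.87 (adjusted p 0.0576 to 0.129). Over the windows H2-K1, H2-D1, Tapbp and Tap2 were called without it too, at 1.59, 1.33, 1.502 and 0.88.

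**Figure D4:**
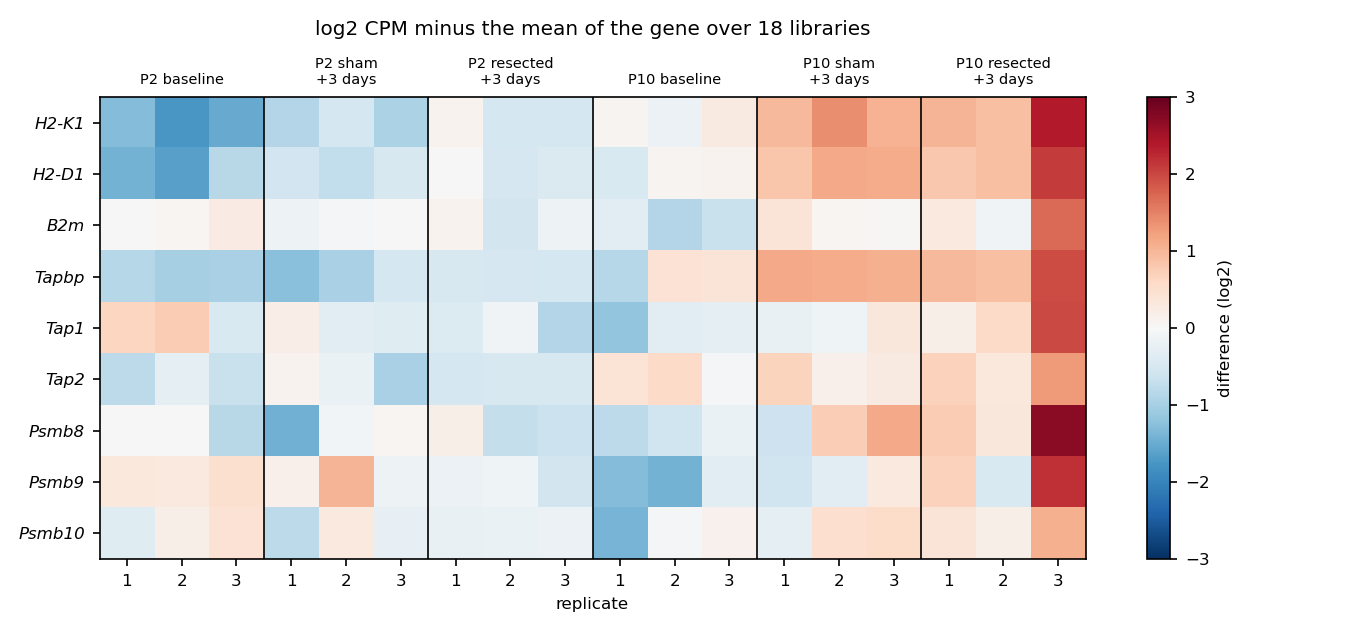
Log2 CPM minus the mean of the gene over the 18 libraries, for 9 class I genes (rows, Nlrc5 left out) in the 18 libraries (columns, by group), on a colour scale from -3 to 3. The last library, P10 resected replicate 3, is the highest for each of the 9 genes, and in P2 baseline replicates 1 and 2 Tap1 and Psmb9 lie above their means where H2-K1 and H2-D1 lie below theirs.

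Resection was compared with sham surgery at each age to ask how the fibroblasts respond to injury. No member was called at P2, at P10, over both ages together or in the difference between ages, and edgeR called 0% of all genes tested in each. At an unadjusted p under 0.05, 0, 2, 0 and 2 members passed (4.51%, 4.09%, 5.78% and 2.88% of all genes), and neither DESeq2 nor limma voom called a member. At P2 the difference was 0.49 ± 0.33 for H2-K1 and 0.31 ± 0.31 for H2-D1 (adjusted p = 1 for both). H2-K1 was higher in every resected library there than in every sham library by a narrow margin, 45.7 against 45.4 CPM (5.62% of all genes were higher without overlap).

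At P10, resected against sham, the members with an unadjusted p under 0.05 were Tap1 (1.10 ± 0.44) and Psmb9 (1.35 ± 0.59), both with adjusted p = 1. The difference between the resection effects at P10 and P2 was 1.39 ± 0.61 for Tap1 and 2.06 ± 0.83 for Psmb9, again with adjusted p = 1. Without P10 resected replicate 3 the P10 difference was 0.36 for Tap1 and 0.38 for Psmb9, and for H2-K1 it went from 0.44 to -0.20, for H2-D1 from 0.36 to -0.18 and for B2m from 0.68 to -0.058. Over both ages together H2-K1 was 0.47 ± 0.23 higher after resection (95% interval -0.022 to 0.96, adjusted p = 0.882).

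Sham surgery was compared with baseline at each age, a comparison in which the operation and 3 days of growth cannot be told apart. No member was called by edgeR at either age, where it called 0 genes at P2 and 1 gene (0.00618%) at P10. At an unadjusted p under 0.05 there were 3 members at P2 (7.6% of all genes) and 4 at P10 (7.4%), and neither DESeq2 nor limma voom called a member. At P10 the log2 difference, sham minus baseline, was 1.09 ± 0.33 for H2-K1 (adjusted p = 0.462), 1.10 ± 0.31 for H2-D1 (adjusted p = 0.419, and 0.0459 without the filter), 1.01 ± 0.32 for Tapbp (adjusted p = 0.515) and 0.77 ± 0.34 for B2m (adjusted p = 0.651). H2-K1, H2-D1, Tapbp, B2m and Tap1 were higher in every P10 sham library than in every P10 baseline library, against 5.34% of all genes tested. At P2 the differences were 0.73 ± 0.33 for H2-K1 and 0.66 ± 0.31 for H2-D1 (adjusted p = 0.640 and 0.655), both without overlap (4.48% of all genes).

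The nonclassical and class I-like heavy chains share the fold of H2-K1 and H2-D1 but serve other tasks. Of 18 such genes 14 were tested, and over the windows 6 were called, all higher at P10 (13.5% of all genes were called), with a median log2 fold change of 0.93 against -0.060 over all genes. H2-M3, which presents formylated peptides, rose by 1.88 ± 0.31 (adjusted p = 0.000416). Fcgrt, the neonatal Fc receptor, rose by 1.09 ± 0.14 (adjusted p = 4.43e-05), Hfe, a regulator of iron uptake, by 1.07 ± 0.22 (adjusted p = 0.00269) and Mr1, which presents vitamin B metabolites, by 0.96 ± 0.22 (adjusted p = 0.00648). H2-T23, the mouse Qa-1 gene, rose by 1.11 ± 0.34 (adjusted p = 0.0395), and H2-Q10 was called with 0 reads at P2 and 55 at P10.

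Without P10 resected replicate 3, H2-M3, Fcgrt, Hfe and Mr1 were called over the windows, and H2-T23 (0.60, adjusted p = 0.113) and H2-Q10 (adjusted p = 0.0853) were not. At baseline edgeR called H2-M3 (2.38, adjusted p = 0.0173) and Fcgrt (1.40, adjusted p = 0.00347), where 4.38% of all genes were called. After sham surgery it called Fcgrt (1.03, adjusted p = 0.0261) and Hfe (1.45, adjusted p = 0.0455), where 3.18% of all genes were called. After resection none was called by edgeR, with 5 at an unadjusted p under 0.05 (8.77% of all genes). H2-Q4 and H2-Q7 stayed at or under 6.91 CPM in all libraries and were not called. Heavy chain genes resemble each other in sequence, and 3.1% of the stretches of 75 bases in H2-K1 and 5.56% in H2-D1 also occur in another gene.

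Of 14 genes for loading and trimming in the endoplasmic reticulum beside Tapbp, 1 was called over the windows (13.5% of all genes were), namely Tapbpl (1.17 ± 0.33, adjusted p = 0.0251), which edits peptides on class I. It was 1.05 (adjusted p = 0.0666) without P10 resected replicate 3. Of 19 constitutive proteasome and activator genes none was called by edgeR, with 0 at an unadjusted p under 0.05. The activator genes Psme1 and Psme2, which interferon gamma also raises in many cells, differed by 0.082 and -0.088 on the log2 scale.

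Of 24 regulators of class I and of interferon signalling, 4 were called over the windows, all higher at P10, a share near the 13.5% of all genes called. Ifngr1, the ligand-binding chain of the interferon gamma receptor, rose by 1.04 ± 0.17 (adjusted p = 0.000406) and was higher in every P10 library than in every P2 library (1.15% of all genes). It was also called after sham surgery (1.23, adjusted p = 0.0265) and after resection (1.36, adjusted p = 0.0321). The others were Socs1, a brake on interferon signalling (0.96, adjusted p = 0.00102), Irf2 (0.52, adjusted p = 0.0446) and Ifnar2 (0.37, adjusted p = 0.0454). Without P10 resected replicate 3 Ifngr1 (0.88, adjusted p = 0.000328) and Socs1 (0.90, adjusted p = 0.00281) were called over the windows, Irf2 and Ifnar2 were not, and Ifngr1 between the resected groups was not (0.86, adjusted p = 0.293).

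Irf1, a direct activator of class I promoters, ranged from 27.0 to 299 CPM over the P2 libraries and was not called in any age comparison, nor was Rfx5.

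No read was assigned to Ifng, Ifnb1 or 7 other interferon genes in any of the 18 libraries. The 42 other interferon-stimulated genes summed to 2726 to 3558 CPM in P2 baseline, 1065 to 1341 CPM in P2 sham, 1192 to 1460 CPM in P2 resected, 875 to 986 CPM in P10 baseline, 1825 to 2155 CPM in P10 sham and 1481 to 8937 CPM in P10 resected. Their highest level outside P10 resected replicate 3 was thus at P2 baseline, where H2-K1 and H2-D1 were at their lowest.

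Of the 41 interferon-stimulated genes tested, 13 fell from P2 to P10 at baseline (4.38% of all genes were called), 33 were lower without overlap (12.1% of all genes), and the median log2 fold change was -2.53 (-2.41 with genes at 0 in a group set to their bound) against -0.027 over all genes. Isg15, a ubiquitin-like protein, was at -4.08 ± 0.85 (adjusted p = 0.0111), Usp18, its protease, at -3.99 ± 0.73 (adjusted p = 0.00458) and Oasl2 at -3.57 ± 0.72 (adjusted p = 0.00905). Oas1a, Rtp4 and Parp14 were at -6.08, -3.20 and -3.14 and were called as well. After sham surgery edgeR called none, with 5 at an unadjusted p under 0.05 (16.3% of all genes). After resection edgeR called Ifit3 (3.74 ± 0.85, adjusted p = 0.0456) and the median was 2.36. There 26 had an unadjusted p under 0.05 (8.77% of all genes). Without P10 resected replicate 3 the median was 0.62 and none was called by edgeR, with 5 at an unadjusted p under 0.05 (Ifit3 1.67, adjusted p = 0.637). Over the windows Gbp2 was called higher (1.35 ± 0.39, adjusted p = 0.0274) and the median was -0.081. With that library left out Gbp2 was at 0.92 (adjusted p = 0.0960), Bst2, Isg15 and Oas1a were called lower and the median was -0.56.

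The 9 MHC class II genes, which mark professional antigen-presenting cells, stayed low. Their summed level was 0.853 to 10.3 CPM in P2 baseline and 17.6 to 50.4 CPM in P10 resected. H2-Ab1 (1.39 ± 0.98) and Cd74 (1.96 ± 0.85) were not called over the windows.

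The macrophage markers, 15 genes, summed to 14.99 to 75.8 CPM in P2 baseline, 7.76 to 210 CPM in P2 sham, 78.2 to 493 CPM in P2 resected, 20.3 to 261 CPM in P10 baseline, 114 to 412 CPM in P10 sham and 84.4 to 1195 CPM in P10 resected. Of 14 tested, Itgam and Cd14 (2.11 ± 0.62, adjusted p = 0.0304) were higher over the windows, a share near the 13.5% of all genes called, and 13 of the 14 were above 0 with a median log2 fold change of 1.17. The medians were 0.97 within baseline, 1.51 within sham and 1.18 within the resected groups, where edgeR called none and 3, 2 and 0 had an unadjusted p under 0.05 (18.7%, 16.3% and 8.77% of all genes). With P10 resected replicate 3 left out, Cd14 and Lyz2 were called over the windows and Itgam was not (adjusted p = 0.0578). Ptprc, the pan-leukocyte gene, was at 0 in P2 baseline replicate 3, P2 sham replicate 1, P2 resected replicate 3 and P10 baseline replicate 3. Endothelial markers, 9 genes, summed to 180 to 510 CPM over the P2 libraries and 254 to 495 CPM over the P10 libraries. Cardiomyocyte markers, 12 genes, were lower at P10 for 6 genes called, and mural cell markers, 9 genes, higher for 5. The genes called over the windows in the other marker lists were Cd4 (lymphocyte) and Hba-a1 (red blood cell), both higher, Tbx18 (epicardial), lower, and the fibroblast genes Col3a1, Dcn and Lum, higher, with none of the dendritic cell or neutrophil markers called by edgeR. The part of these cells in the ages' difference in class I genes was not tested.

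**Figure D5:**
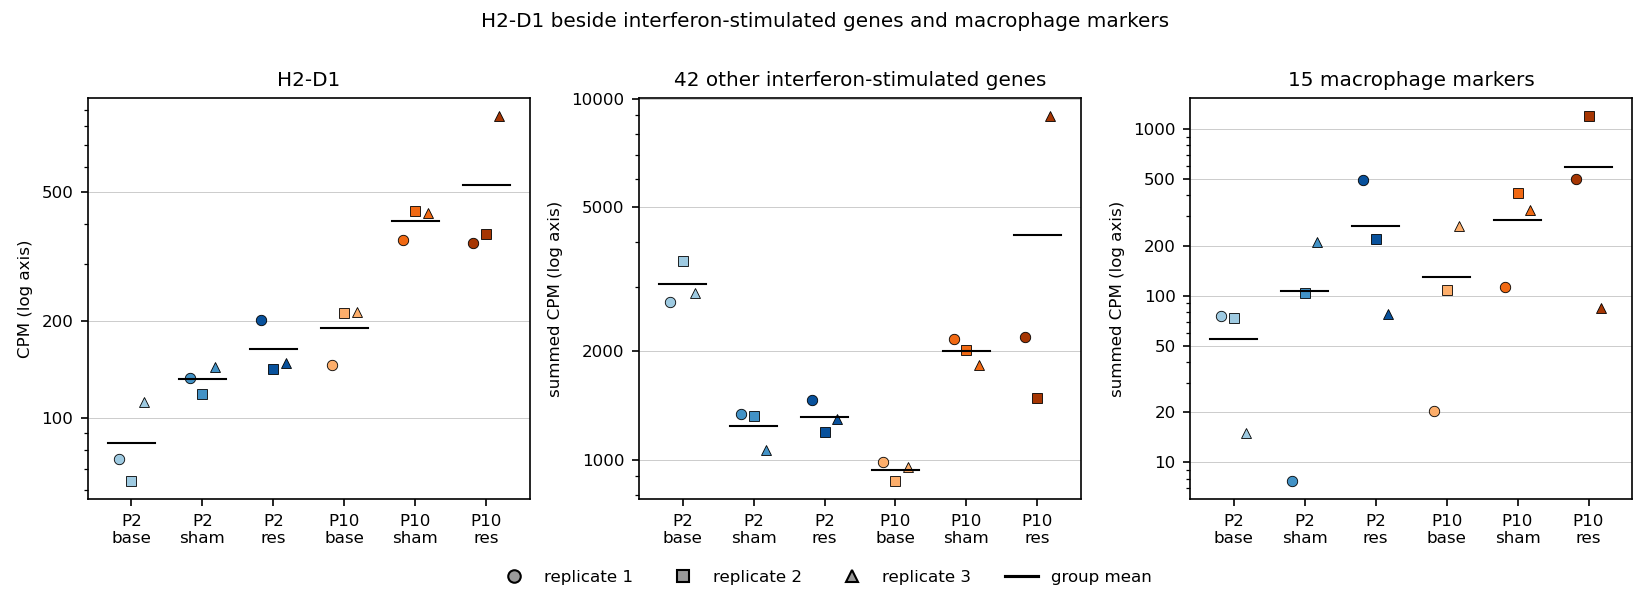
Level of H2-D1 (CPM, log axis) beside the summed CPM (log axis) of 42 other interferon-stimulated genes and of 15 macrophage markers in each library by group, with bars for group means. The interferon-stimulated genes are at 2726 to 3558 CPM in P2 baseline and reach 8937 CPM in P10 resected replicate 3, where the macrophage markers are at 84.4 CPM.

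Among the members themselves, log2 CPM over the 18 libraries correlated at r = 0.969 for H2-K1 with H2-D1 and r = 0.914 for H2-K1 with Tapbp, but at 0.469 for H2-K1 with B2m and 0.186 for H2-K1 with Psmb9. With P10 resected replicate 3 left out these were 0.957, 0.884, 0.0937 and -0.257. Over deviations from the group means the same 4 pairs correlated at 0.734, 0.449, 0.800 and 0.774, and at 0.309, -0.0437, 0.328 and 0.465 without that library. The order of the partners over all libraries thus differed from that over the deviations within groups. The 18 points share the groups and the scaling, so these values are a description. The mean of the members' standardised log2 CPM was 2.31 in that library, 0.31 to 0.71 in the other P10 sham and resected libraries, and -0.86 to -0.13 in all P2 and P10 baseline libraries.

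The 8 genes outside the members with the most similar course were Ly6e (r = 0.957 with that mean over 18 libraries), H2-T23 (0.911), Pnp (0.896), Apod (0.894), Ggt5 (0.888), Lgi2 (0.875), Ms4a4d (0.873) and Fth1 (0.866). With P10 resected replicate 3 left out their correlations were 0.886, 0.790, 0.788, 0.734, 0.806, 0.702, 0.856 and 0.823.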

How the data were processed

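RNA of the sorted GFP+ cells was amplified by SMARTer chemistry, and Nextera XT libraries were sequenced from 1 end (75 nt). The authors trimmed reads with fastp 0.20.0, mapped them with STAR 2.7.0f to GRCm38.p6 with GENCODE M22 and counted those on exons per gene symbol with featureCounts (Subread 1.6.4) ignoring strand. The deposited files hold these raw counts. Samples were grouped by the labels, 3 libraries per group, and 0 further columns of counts were left out.

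Tests used edgeR 4.0.16 (R 4.3.3). Of 55453 symbols, 28906 had a count and 16170 passed filterByExpr (minimum count 10, minimum total 15). Libraries were scaled by TMM, 1 quasi-likelihood model with a mean per group was fitted to all 18, and comparisons were contrasts of these means. Genes were called at a p-value under 0.05 after Benjamini-Hochberg adjustment over all genes tested. Alternatives were median-of-ratios and upper quartile scaling, no filter, DESeq2 1.42.0, limma 3.58.1 (voom with quality weights), a fit of only the groups compared, the replicate number as a block, and each library left out. The tests were checked on simulated data.

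The text names all members, up to 6 called genes per list and comparison with the largest change, set counterparts and regulators, and the 8 genes most like the members. The members and lists were chosen with earlier results of these data known. Positions and exon lengths came from GENCODE M21 (GRCm38), 1 release before that of the counts. Promoters came from RefSeq (GRCm38.p6). Values of 1 regulator are not reported here.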

Additional observations from a re-analysis of the deposited data

Results flagged for a closer look

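The P10 libraries of B2m lay wholly below the P2 libraries at baseline (log2 fold change from P2 to P10 -0.70, adjusted p = 0.277 by edgeR) and wholly above them after sham surgery (0.22, adjusted p = 0.831 by edgeR), where the margin was 508 against 502 CPM. Neither difference was called. This difference between the conditions was not tested. H2-T23 did the same, with -0.73 within baseline, 1.44 within sham and 2.62 within the resected groups (1.07, adjusted p = 0.766 by edgeR, without P10 resected replicate 3).

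The interferon-stimulated genes Usp18 (-3.99, 1.19 and 2.71 in the same order), Parp14 (-3.14 at baseline and 1.51 after resection) and Ifit3 (-2.41, 1.30 and 3.74) also had P10 libraries wholly below the P2 libraries at baseline and wholly above them after surgery. The differences between conditions were not tested for these genes either. Without P10 resected replicate 3 the differences between the resected groups were 0.98 for Usp18, 0.62 for Parp14 and 1.67 for Ifit3, none of them called.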

How the results depend on the processing

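The members called higher at P10 numbered 2 at baseline, and 4 with DESeq2 or limma voom and 1 in a fit of only the groups compared. Between the resected groups they numbered 3, and 6 without the filter or with DESeq2, while a fit of only the groups compared lost H2-K1 (adjusted p = 0.0519) and gained Tap2. After sham surgery against P10 baseline there was none, and 1 without the filter. With a library left out they ranged from 0 to 3 at baseline, 0 to 3 between the resected groups, 3 to 3 after sham surgery and 4 to 5 over the windows. None was called lower under any alternative.

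Genes called in all moved more. At baseline they numbered 709, and 1155 without the filter, 1671 with DESeq2, 3645 with limma voom, 295 with only the groups compared and 264 to 1207 with a library left out. After sham surgery they numbered 515, and 911 without the filter, 1281 with DESeq2, 125 with only the groups compared and 312 to 416 with a library left out. After resection they numbered 139, and 526, 506, 908 (limma voom), 332 and 30 to 136. Over the windows they numbered 2183, 4569 with limma voom and 1680 to 2987 with a library left out. In the resection comparisons none was called, and without the filter, with DESeq2 and with the replicate block there were 24, 34 and 1 at P2, 76, 43 and 1 at P10, and 96, 91 and 1 over both ages (51 with limma voom). The difference between ages gave 30 without the filter and 26 with DESeq2. Sham against baseline gave 110 and 180 at P2, and 151 and 164 at P10. With a library left out these ranged from 0 to 0 at P2 resected against sham, 0 to 5 at P10, 0 to 4 over both ages, 0 to 4 for the difference, and 0 to 9 and 0 to 5 for sham against baseline at P2 and P10. The cause was not tested.

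Among the single-gene differences that were recomputed, which are not every member in every comparison, directions turned in 10 cases, each with 1 library left out and none of them called. For resected against sham at P10 the turn came without P10 resected replicate 3, and over the libraries left out H2-K1 ranged from -0.20 to 0.69, H2-D1 from -0.18 to 0.59, B2m from -0.058 to 0.996, Tapbp from -0.16 to 0.44, Psmb8 from -0.015 to 1.45 and Psmb10 from -0.012 to 0.46. The window difference of B2m ranged from -0.052 (the same library) to 0.28 and that of Psmb9 from -0.46 to 0.012 (without P2 sham replicate 2). The sham difference of Tap1 ranged from -0.030 (without P10 sham replicate 3) to 0.37. For B2m, resected against sham at P2, the range was -0.27 to 0.043 (without P2 resected replicate 2).

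The labels do not say that a replicate number marks a shared litter or day, and the libraries were not treated as paired. Deviations from the group means of same-numbered libraries correlated at -0.115 to 0.341 over 45 pairs, 11 of them over 0.1, and 10 of 18 libraries correlated best with their own number. With the replicate number as a block, 1008 genes were called at baseline, 636 after sham surgery, 186 after resection and 2745 over the windows, and the members called stayed at 2, 3, 3 and 4. Leaving out the filter moved the median of all genes over the windows to -0.13. Depth limits Nlrc5 most, with at most 42 reads in a library.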
